A study of Mus musculus with 6 samples.

Results

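Jun peaks across Fndc3b were examined in rib chondrocytes of newborn mice. The members were chosen by position, as all peaks of the deposited Jun list whose middle lies on chromosome 3 between 27270001 and 27650000 of the mouse build mm9. This region of 380 kb was selected on the measured density of peaks there, so the number and closeness of its peaks are a description and no finding. It held 144 of the 99162 listed peaks. The rule places Fndc3b at about 27315001 to 27610000 (295 kb) and marks a stretch of 158 kb, from 27418001 to 27576000, as dense. These gene limits are rounded and were not taken from an mm9 annotation, and exons and introns could not be assigned.

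The study asked how AP-1 factors act together with Sox9 as chondrocytes enlarge into hypertrophic cells. Of its 6 samples, the Jun ChIP library and its input library came from untreated wild-type ICR mice at postnatal day 1, and 4 RNA-seq libraries of sorted Col10a1mCherry rib chondrocytes were not analysed here. The ChIP library was made from enzyme-digested rib cells cross-linked directly after isolation, 20000000 cells per reaction, so the list averages over every cell type and stage in that digest. The list gives no height, score or depth, and there was no ChIP replicate. The cell type could not be checked against marker genes in these data.

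Fndc3b encodes a membrane protein with a row of fibronectin type III domains. It is also known as Fad104, a factor first described in fat cell differentiation and later linked to the differentiation of bone-forming cells. Jun is a leucine zipper protein. It pairs with Fos or other Jun family members to form AP-1, which binds the short palindrome-like site TGANTCA, and also the related site TGACGTCA, at promoters and at distant enhancers. In RefSeq's table for the later build GRCm38.p6, Fndc3b is a protein-coding gene of 295 kb on the minus strand with 10 listed transcripts. It contains the microRNA gene Mir3092 and the transcript Gm32738, and its nearest protein-coding neighbours are Ghsr on the 3′ side and Tmem212 on the 5′ side. Because the gene lies on the minus strand, its 5′ end is at the higher coordinate.

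The 5′ end is the one regulatory element of Fndc3b whose sequence was at hand. The 3 listed peaks within 3 kb of its approximate position lay inside the rounded gene limit, and the 40 kb of 5′ flank held none. The upstream sequence is thus given for the promoter and was not matched to any peak. The 250 bases upstream of the RefSeq start (GRCm38.p6, minus strand, chr3:27710453-27710702) are shown 5′ to 3′, with CG pairs in capitals. These coordinates belong to another build than those of the peaks and cannot be set beside them.
Fndc3b promoter: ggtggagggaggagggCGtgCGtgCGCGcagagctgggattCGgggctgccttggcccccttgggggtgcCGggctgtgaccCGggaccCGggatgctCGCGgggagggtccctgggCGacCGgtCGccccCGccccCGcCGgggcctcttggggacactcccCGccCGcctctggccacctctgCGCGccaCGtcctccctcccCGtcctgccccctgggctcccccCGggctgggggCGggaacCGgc

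This stretch was 79.2% G and C, with 25 CG pairs, against medians of 52.4% and 6 over the 32851 RefSeq promoters of the same length. Neither TGANTCA nor TGACGTCA occurred in it on either strand. Of all these promoters, 6.75% held TGANTCA and 1.55% held TGACGTCA. The GC box core CCGCCC, the type of site that Sp1 family factors bind, occurred 2 times on the strand shown and 1 time on the other, and 32.7% of the promoters held it at least 1 time. A missing match says only that these letters are not in these 250 bases.

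Near the 5′ end the peaks kept inside the rounded limit of the gene. With a rounded limit, the side of the true gene end on which the nearest peaks lie cannot be told. The last peak, from 27608943 to 27609161 (219 bp), ended 839 bp short of the approximate 5′ end. The next 2 peaks inward were one of 64 bp from 27608162 to 27608225 and one of 466 bp from 27607445 to 27607910, the third widest of the peaks outside the 158 kb stretch. Upstream of the rounded limit the list was empty: none of the 144 peaks lay in the 40 kb of 5′ flank. The next listed peak began at 27665150, after 55988 bp without any.

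Beyond the rounded 3′ limit, peaks went on for a short distance. There 8 peaks lay in the 45 kb of 3′ flank, the nearest of them from 27314438 to 27314833 (396 bp), with its centre 366 bp from the approximate 3′ end. The 8 peaks reached 8.40 kb past the rounded limit, to a peak starting at 27306598. Further out a stretch of 62017 bp without peaks separated them from the preceding peak, which ended at 27244580. The 144 peaks thus spanned 303 kb, close to the length of the gene, with 136 of them inside its rounded limits and empty stretches on both sides. The centre distances across these stretches were 62106 and 56145.5 bp. Both lie between percentiles 91 and 93 of the distances between all listed peaks (52892 and 64826 bp). The region was drawn around its peaks, so nothing is read from this span.

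**Figure D1:**
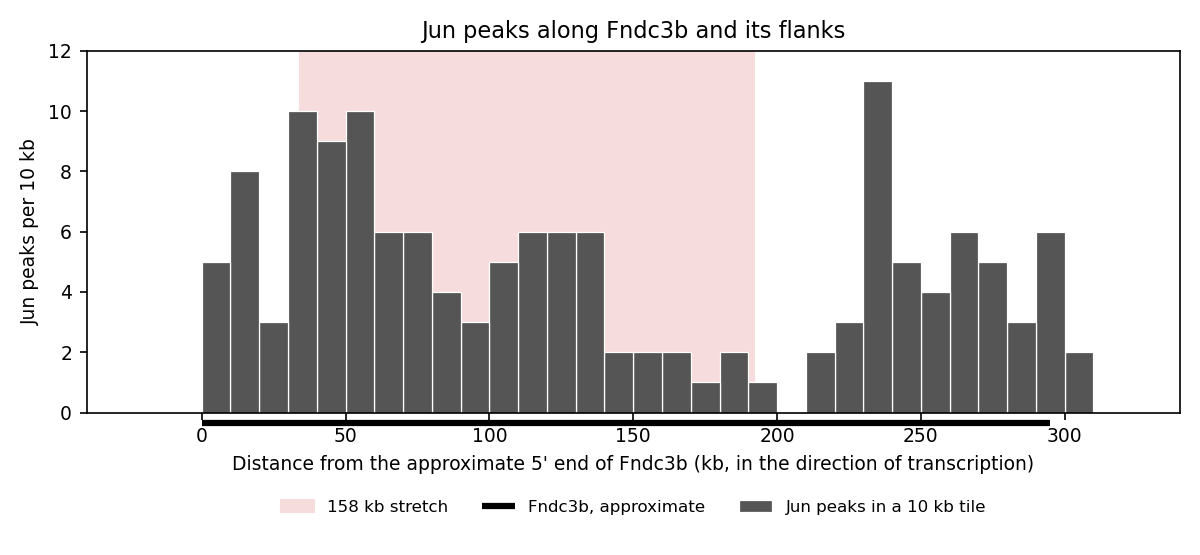
Jun peaks per 10 kb tile (bars) against the distance in kb from the approximate 5′ end of Fndc3b in the direction of transcription. The black bar is the gene and the shaded area the 158 kb stretch. The tile with the most peaks, 11, lies outside the shaded area, and the tiles upstream of the 5′ end are empty.

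The peaks formed separate groups, 1 of them in the 3′ flank and 3 in the gene by its rounded limits. Chaining neighbours no more than 10 kb apart, centre to centre, divided all 144 peaks into 4 groups. From the 3′ side they held 8, 39, 81 and 16 peaks over 8.24, 70.7, 157 and 23.3 kb. The group of 81 peaks, from 27418203 to 27575680, is the stretch marked as dense. The 3 longest distances between neighbouring centres in the region are the ones that separate the groups. They measured 20817 bp before the group of 81, 12322 bp between the first and the second group, and 10326.5 bp after the group of 81. Inside that group the 2 longest distances were 9707.5 and 9611 bp, both just short of a further break.

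The 158 kb stretch was longer than the other groups and only slightly denser than the rest of Fndc3b. It held 81 peaks, or 5.13 per 10 kb. The 137 kb of gene outside it held 55 peaks, or 4.01 per 10 kb, a ratio of 1.28. The stretch made up 53.6% of the gene's length and held 59.6% of its peaks. With its limits moved outward by 10 kb on each side the ratio was 0.998, so that the direction turned, and with limits moved inward by 10 kb it was 1.01. The limits of the stretch lie on the empty intervals around the group of 81. Counted over its own span, the group of 81 peaks had 5.14 peaks per 10 kb, fewer than the group of 39 (5.52), the group of 16 (6.86) and the group of 8 (9.71). Against the flanks included, where 63 peaks lay in 222 kb (2.84 per 10 kb), the ratio was 1.81.

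The density inside the 158 kb stretch was uneven. When it was cut into 4 pieces of 39.5 kb, a division made after seeing the counts, the pieces held 8, 17, 17 and 39 peaks from the 3′ to the 5′ side. The piece nearest the 5′ end thus had 9.87 peaks per 10 kb and 48.1% of the peaks of the stretch, 4.88 times as many as the piece farthest from it. The other 3 pieces together had 42 peaks, or 3.54 per 10 kb, fewer than the rest of the gene. The median distance between neighbouring centres was 4232.5 bp in the sparse 3′ piece and 836 bp in the 5′ piece. Peaks of 200 bp or more numbered 0, 4, 3 and 14 in the same order, or 0, 23.5, 17.6 and 35.9% of the peaks of each piece. Among all listed peaks the share was 14.0%. The pieces differ in number of peaks and were cut after seeing the counts, so these shares are a description and were not tested.

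Tiles of 10 kb showed where the peaks crowded. Of 38 tiles, 8 held no peak, 16 held 5 or more and 3 held 10 or more. The fullest tile, with 11 peaks, ran from 27370001 to 27380000 and lay in the 3′ part of the gene, outside the stretch marked as dense. The other two, with 10 peaks each, ran from 27550001 to 27560000 and from 27570001 to 27580000. Across the genome, 151 of the 55526 tiles of 10 kb that held any peak (0.272%) reached 10, and their median was 1 peak. The region was chosen for its peaks, so these figures place it and test nothing.

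Merging across intervals of up to 1000 bp turned the 144 peaks into 76 regions, of which 44 were single peaks and 32 joined the other 100. The region with the most peaks joined 11 of them over 6223 bp, from 27569458 to 27575680, at the 5′ edge of the group of 81. The second joined 8 over 5331 bp, from 27550527 to 27555857. The next, with 5 peaks each, ran from 27309415 to 27312101 in the 3′ flank and from 27372695 to 27375013 in the 3′ part of the gene. Regions of 4 peaks followed, the first of them by position from 27330003 to 27332127. Among the 5 regions named, 2 were in the 158 kb stretch and 3 on the 3′ side of it.

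Spacing was nearly the same in and outside the 158 kb stretch. The median distance between neighbouring centres was 1197 bp inside it, with the central 50% of distances from 700 to 2173 bp. In the rest of the gene and flanks, taken on each side of the stretch separately, it was 1214 bp, with the central 50% from 638 to 2267 bp. The distances across the limits of the stretch, 20817 and 10326.5 bp, belong to neither set. In the region as a whole, 54 of 143 distances (37.8%) were within 1000 bp, against 23.3% of the distances between all listed peaks. The closeness of these peaks is what the region was chosen for, and nothing is read from it.

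Of the neighbouring peaks, 6 pairs overlapped, 3 of them in the 158 kb stretch. The share of overlapping neighbours among all listed peaks was not computed. Overlapping peaks share part of their sequence, but those of these pairs were 6494 to 48326 places apart in the list. The peaks from 27573775 to 27574120, from 27573985 to 27574285 and from 27574125 to 27574546 form a chain in which each overlaps the next by 136 and 161 bp. They were at places 77885, 71391 and 84460 of the list. In the 3′ flank a pair that shares 143 bp was 48326 places apart.

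Widths, which the choice of the region did not use, ran higher at Fndc3b than in the whole list. The median width of the 144 peaks was 129 bp, with the central 50% from 97 to 221 bp, against 114 bp and 88 to 151 bp for all listed peaks. Peaks of 200 bp or more made up 42 of the 144 (29.2%, exact 95% binomial interval 21.9 to 37.3%), against 14.0% in the list. Peaks of 400 bp or more made up 15 (10.4%, interval 5.95 to 16.6%), against 3.10%. Peaks under 50 bp made up 7 (4.86%, interval 1.98 to 9.76%), against 6.30%. The lower part of the width distribution was thus near that of the list and the upper part was above it. The intervals cover counting error only and treat peaks as independent, which neighbours in 1 library are not. No test was made, since the peaks of 1 library are not replicates.

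The surplus of wide peaks was not a feature of the 158 kb stretch alone. There 21 of 81 peaks reached 200 bp (25.9%, interval 16.8 to 36.9%), and in the rest of the gene and flanks 21 of 63 did (33.3%, interval 22.0 to 46.3%). The intervals overlap widely. The medians were 128 and 135 bp. In the 3′ part of the gene the share was 14 of 39 (35.9%), and in the 5′ part it was 4 of 16. Among all listed peaks that belong to groups of 20 or more, 22.5% reached 200 bp and 6.09% reached 400 bp. Both values lie within the intervals given for the region, so the surplus is stated against the whole list only.

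The widest peaks lay on both sides of the limits. The widest of the region, 496 bp, ran from 27588114 to 27588609 in the 5′ part of the gene, 21.6 kb from the approximate 5′ end. In the 158 kb stretch the widest measured 488 bp (27506494 to 27506981), 473 bp (27564660 to 27565132), 436 bp (27552769 to 27553204), 432 bp (27553108 to 27553539) and 422 bp (27574125 to 27574546). The third and the fourth of these overlap by 97 bp. Outside it, a peak of 476 bp (27367248 to 27367723) lay in the 3′ part. The narrowest peaks measured 15 bp (27377249 to 27377263), 19 bp (27418203 to 27418221) and 28 bp (27371355 to 27371382). The peak of 19 bp is also the one that opens the group of 81, and lies 212 bp inside the limit of the stretch.

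At the limits, the last peak inside the stretch on the 5′ side was 129 bp wide, from 27575552 to 27575680, with its centre 384 bp from the limit. The first peak outside on that side was 178 bp wide, from 27585854 to 27586031. On the 3′ side the first peak outside was 75 bp wide, from 27397358 to 27397432, and its centre lay 20605 bp beyond the limit.

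**Figure D2:**
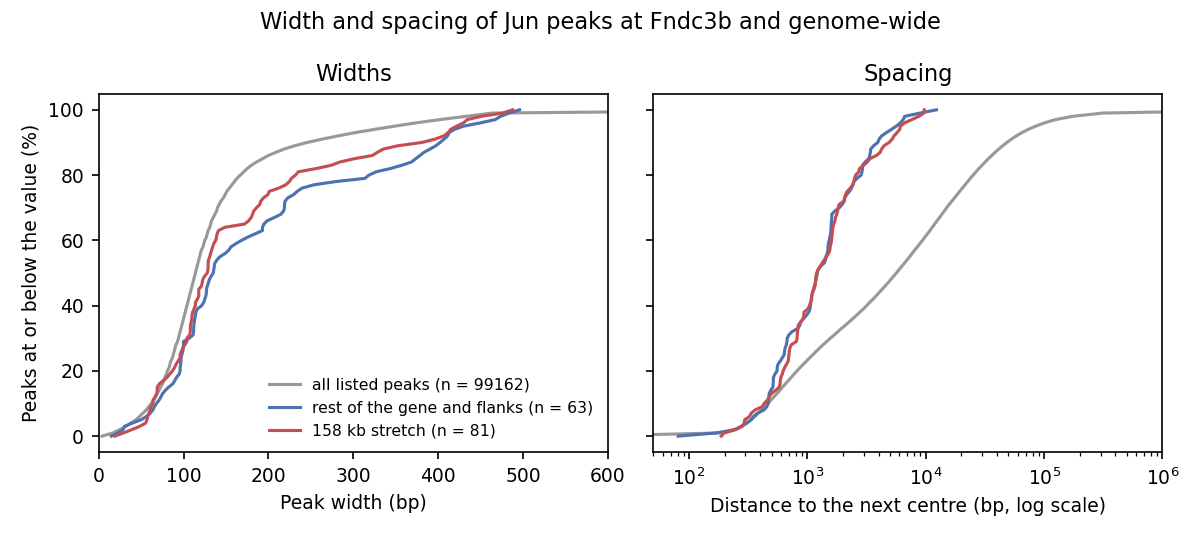
Share of peaks at or below each width (left) and each distance to the next peak centre (right, log scale) for the 158 kb stretch, the rest of the gene and flanks, and all listed peaks. The 2 sets from Fndc3b run together in spacing (medians 1197 and 1214 bp), and in widths both lie at higher values than the whole list in the upper part of the distribution.

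The place of a peak in the deposited list is a second value that the choice of the region did not use. The order is not genomic and its meaning is not stated. The median place of the peaks at Fndc3b was at 60.9% of the list's length, with the central 50% between 29.7 and 78.5%. The first 50% of the list held 60 of the 144 peaks (41.7%, interval 33.5 to 50.2%), against 50.0% of all peaks. Of the listed peaks in groups of 20 or more it held 46.8%, and their median place was 53.4%. Both 50.0% and 46.8% lie within the interval, so no shift in the list is read from these values. The first 10% held 7 (4.86%, interval 1.98 to 9.76%) and the last 10% held 17 (11.8%, interval 7.03 to 18.2%), each against 10.0%. In the 158 kb stretch the median place was 54.5% and in the rest of the gene and flanks 63.9%. The central 50% ran from 30.4 to 78.5% in the stretch and from 31.5 to 80.6% outside it, so that the places overlapped over nearly their whole range.

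The earliest 5 places all belonged to the 158 kb stretch, which holds 81 of the 144 peaks. The first 10% of the list held 5 of these 81 (6.17%, interval 2.03 to 13.8%) and 2 of the other 63 (3.2%). Among all listed peaks the share was 10.0%, so early places were no more frequent in the stretch than in the list. The peak of 488 bp from 27506494, the widest of that stretch, was at place 284. It was followed by peaks of 104 bp (27483615 to 27483718, place 1352), 96 bp (27539786 to 27539881, place 1786), 110 bp (27524301 to 27524410, place 6521) and 104 bp (27516179 to 27516282, place 6537). Apart from the first, these were narrower than the median of the region. All 5 lay between 70.2 and 126 kb from the approximate 5′ end, and the peak from 27539786 alone among them lay in the crowded 5′ piece. The next 2 of the first 10% were outside the stretch, 1 in the 5′ part and 1 in the 3′ part of the gene. The latest place, 99076, also fell in the stretch, to a peak of 57 bp from 27501136 to 27501192.

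**Figure D3:**
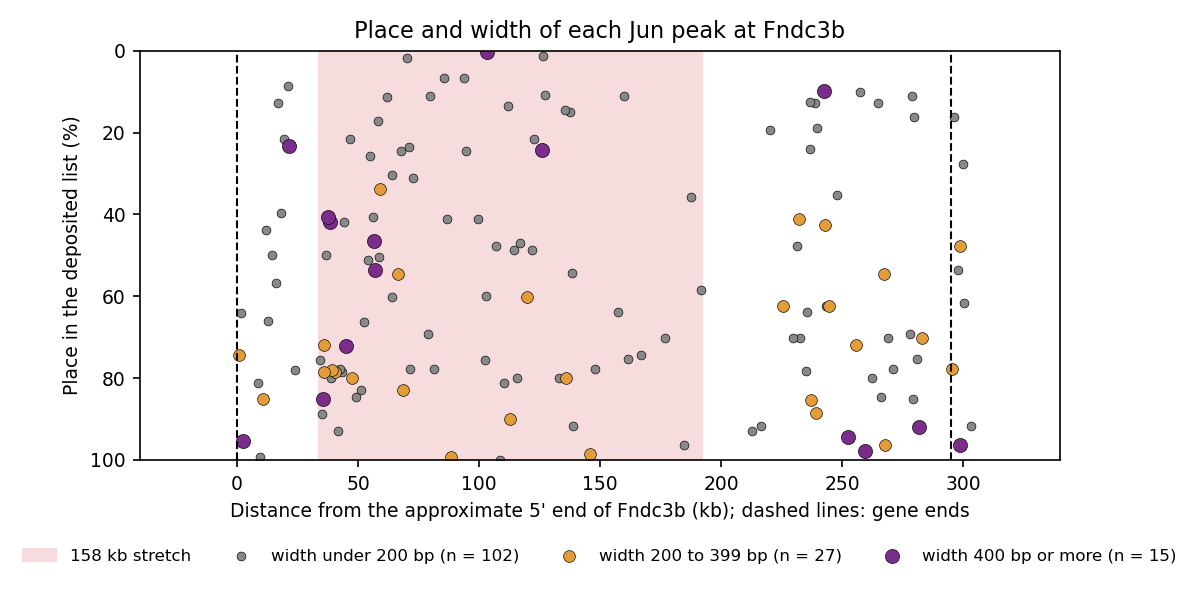
Each of the 144 peaks by distance from the approximate 5′ end (horizontal, kb) and place in the list (vertical, in percent, first rows at the top), with colour and size by width. Peaks of 400 bp or more (15) occur from place 284, in the shaded 158 kb stretch, to the last 10% of the list.

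Early and late parts of the list did not hold the peaks evenly. Of 10 successive parts of the list, each 10% long, the eighth held 32 peaks of the region (22.2%), 20 of them in the 158 kb stretch. Most of these, 27 of 32, belong to the runs of neighbouring rows described further on. The other parts held between 6 and 18. Width and place were weakly related among the 144 peaks (Spearman's rho 0.13, Pearson's r with log2 width 0.09), as among all listed peaks (0.13 and 0.09). These correlations run across peaks of 1 library and are given as a description. Set against all peaks of the same part of the list, the median width at Fndc3b was higher in 9 of the 10 parts. The exception was the seventh part, with 111.5 against 117 bp. In the last part 9 of 17 peaks reached 200 bp, against 24.7% of all peaks there. The parts differed in this: in the second 0 of 18 did, against 5.93%, and in the seventh 3 of 14, against 16.5%.

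**Figure D4:**
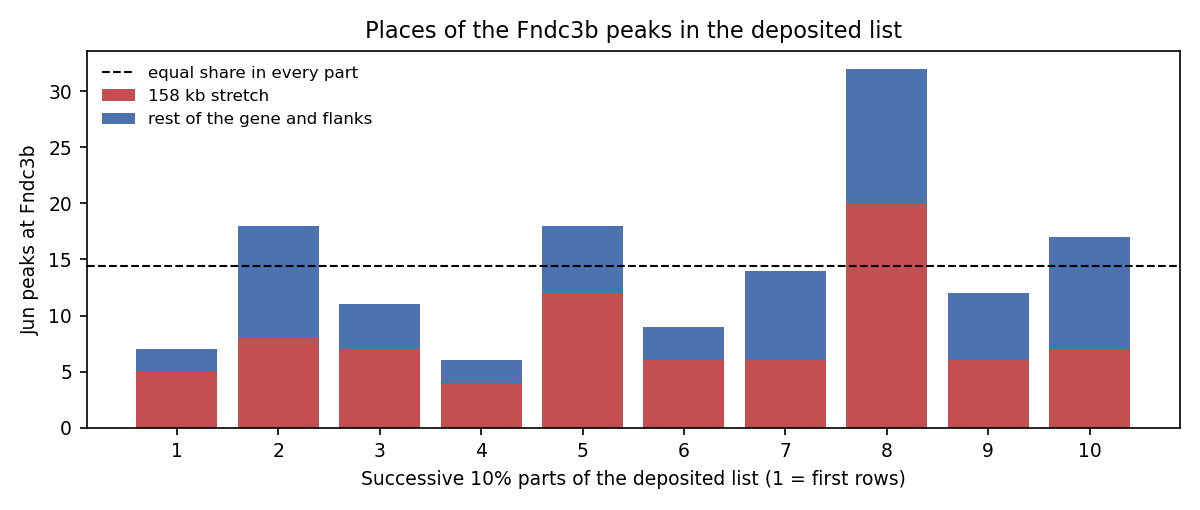
Number of Fndc3b peaks in each successive 10% of the deposited list, split into the 158 kb stretch and the rest of the gene and flanks. The dashed line marks an equal share, and the eighth part stands above it with 32 peaks.

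Many peaks of Fndc3b stood near each other in the list, and some of these were far apart on the chromosome. For 49 of the 144 peaks (34.0%, interval 26.3 to 42.4%), another listed peak within 380 kb, in the region or outside it, lay within 10 places. This was so for 15.2% of all listed peaks, and for 21.7% of those in groups of 20 or more. A region with more peaks has more such neighbours by construction, and the share in the last 50% of the list was 24.0%, so the 15.2% is not a like-for-like level. Joining members that are at most 10 places apart gave 17 runs with 45 members, and 8 pairs of members stood in adjacent rows. Neither count was made over all listed peaks. On the chromosome the runs extended over 3.53 to 224 kb.

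Each of the 6 runs of 3 or more members, with 23 members, was in order of position, some rising and some falling. Most of these runs had only 3 members. The share of ordered runs over all listed peaks was not computed, so the order is a description. The longest, of 6 peaks at places 79259 to 79277, rose from 27347484 to 27571103, a distance of 224 kb. A run of 5 peaks at places 69571 to 69578 descended from 27433347 to 27326774. A run of 3 peaks at places 77047 to 77049 filled adjacent rows, and its peaks lay between 27462103 and 27538661. Of the 17 runs, 10 joined peaks of the 158 kb stretch with peaks outside it. The places of these peaks are not independent of each other, so the intervals given for shares of places and of list neighbours cover counting error only and are too narrow. What orders the list was not determined.

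Among the groups of the genome chained within 10 kb, that of Fndc3b stood out by length more than by density. Chaining within 10 kb gave 38356 groups, of which 243 held 20 or more peaks. The group of 81 was 6th by number of peaks and 4th by span among those 243, but 98th by peaks per 10 kb of span, where the median was 4.75. Span and density were ranked at this chaining distance only. The span takes in distances of 9707.5 and 9611 bp, just short of a break, so both values rest on the 10 kb setting. The rank by number depended on the chaining distance. It was 15th (39 peaks) at 5 kb, 9th (97 peaks) at 20 kb and 3rd (144 peaks) at 25 kb, and 3rd (42 regions) after merging. The 3 groups nearest in number were one of 86 peaks on chromosome 18 (80800220 to 80916071), one of 73 on chromosome 7 (86198124 to 86293937) and one of 72 on chromosome 6 (30983168 to 31082585). They spanned 116, 95.8 and 99.4 kb, against 157 kb at Fndc3b, and had 7.42, 7.62 and 7.24 peaks per 10 kb, against 5.14.

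The 3 compared groups held peaks of much the same width. Their medians were 135, 145 and 134.5 bp, against 128 bp in the group of 81, and 31.4, 28.8 and 31.9% of their peaks reached 200 bp, against 25.9%. Their median places were 65.9, 62.8 and 54.8% of the list, against 54.5%. Neighbours in the list were found for 29.1, 30.1 and 18.1% of their peaks, against 33.3%. Merging within 1000 bp left 31, 20 and 31 regions there and 42 at Fndc3b. The groups are single items without replicates, and none of these differences was tested.

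Counted with all 4 of its groups, the region was set against fixed tiles of its own length. Of the 5477 fixed tiles of 380 kb that held a peak, with a median of 13 peaks, 2 held 144 or more, the fuller of them 148. The tiles start at fixed positions while the region was drawn around its peaks, so the count places the region and ranks nothing.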

How the data were processed

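The authors deposited Jun peaks as intervals (chromosome, start, end) without a header, on mm9 per the submitters' processing notes. Aligner, peak caller and use of the input were not given in the sources used here. An FDR mark stands in the list's name, and its scale is not explained. No sample is named in the list, which was assigned to the 1 Jun library. The region, its limits and the quantities described were chosen with earlier results of these data known. Positions are counted from 1 and a peak belongs where its centre lies. Python 3.11.15, pandas 2.3.3, numpy 2.4.6, scipy 1.17.1 (exact binomial intervals) and matplotlib 3.10.9 were used, and the grouping steps were tested on simulated data. The named peaks are the 5 widest of the 158 kb stretch and the 3 widest elsewhere, the 5 earliest in the list, those at the limits and gene ends, the 5 fullest merged regions, the 3 longest distances and the 3 fullest 10 kb tiles. The narrowest peaks, the latest place, the overlapping pairs, the runs and the 4 pieces of the stretch were added after seeing the values. RefSeq sequences and names are those of GRCm38.p6, and no coordinate was converted. No significance test was made.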

Additional observations from a re-analysis of the deposited data

How the results depend on the processing

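Of 42 values recomputed under other settings, 28 moved by at most 1.5 times (counts, ratios and ranks) or stayed within the 95% order-statistic interval of the median, 13 moved further and 1 changed direction. The last was the density ratio of the 158 kb stretch to the rest of the gene, 0.998 with limits 10 kb wider on each side, which take in empty sequence by construction. With limits 10 kb narrower the ratio was 1.01, a value counted among the 28. The region held 76 regions after merging within 1000 bp, 60 peaks from the first 50% of the list and 84 from the remainder, sets that are smaller by construction. Merging raised the median distance to 3193.5 bp in the stretch and 2803 bp outside it, and the median width to 164.5 and 397.5 bp. The distance was then longer inside the stretch, the reverse of the reported order. Measured from the end of a peak to the start of the next, it was also longer inside, 1058.5 against 1035 bp. Medians inside and outside were counted as separate values, so these turns are not in the count of 1. Chaining within 5 kb left 39 peaks in the largest group of the stretch (15th in the genome). Merged regions chained within 10 kb gave a group of 42 (3rd), and a distance of 25 kb, chosen after seeing the data, joined all 144 peaks (3rd). No paired analysis was possible because 1 ChIP library has no replicate. Without read depth or input values, a stretch without peaks cannot be taken as unbound, and widths cannot be related to peak height.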
